A study of Homo sapiens with 4 samples.

Results

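The GATA1 Neg control pool of the megakaryoblastic line Meg-01 was measured in 4 of the 8 channels of a set of 2-colour arrays, and its baseline expression is described here from those 4 channels alone. Meg-01 is an established human cell line from the blast crisis of chronic myeloid leukemia. GATA1 Neg was a pool of Meg-01 cells infected with lentivirus that carried a control shRNA with limited homology to human genes. On each of 4 Agilent oligonucleotide arrays, all on 1 slide, RNA from GATA1 Neg was co-hybridized with RNA from 1 of 2 Meg-01 clones, GATA1 5-13 or GATA1 4-14, in which a lentiviral shRNA stably lowers GATA1. Infected cells were selected with puromycin and plated in soft agar, and each clone is the progeny of a single colony. Whether the pool was also selected with puromycin is not stated, and it was not cloned. Clones and pool were cultured in RPMI medium with fetal bovine serum, and no chemotherapy drug is named for the array samples. The control RNA was labelled with the green dye, Alexa555, on the first array of each clone and with the red dye, Alexa647, on the second. The extraction text of the labels names clones of CMK, another megakaryoblastic line, whereas every sample label names Meg-01, and the samples were taken as Meg-01. The 4 channels are repeated readings of 1 control pool, so their spread is technical and carries no culture-to-culture variation.

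Megakaryocytes are the large marrow cells that shed platelets, and they share a bipotent progenitor with red cells. GATA1, with its cofactor FOG1 (gene ZFPM1), drives both lineages, and mast cells, basophils and eosinophils also depend on GATA factors. Leukemic megakaryoblasts are held at an early step, when integrin αIIb (ITGA2B, CD41) is already on the surface and granules, proplatelets and platelets have not been made.

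A probe was called present in a channel where the scanner software marked its spot as well above background, a test of the spot against the noise of its own background. Its level was the background-subtracted brightness, given as a percentile among all probes of the same channel. In the lists below, a gene with several probes is represented by the one with the highest mean percentile, and values in a row of 4 are ordered by array as GATA1 5-13 then GATA1 4-14 within each dye. Levels follow each probe's binding as well as transcript number, so they place a probe within its channel and do not rank one transcript above another. Of 40977 probes measured in all 4 channels, 24512 (59.8%) were present in all 4, 13421 in 0 and 3044 in 1 to 3. Over 17287 named genes, 11808 (68.3%) were present in all 4 channels by this probe and 4322 (25.0%) in 0, with a median percentile of 62.2. These shares are the background for each list. Of the 640 list genes with a probe, 59 had at least 1 probe present in all 4 channels and another in 0. A gene present in 0 channels was not detected by its probe, which does not show that its transcript was missing.

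The presence call separated bright from dim probes at about the 40th percentile. Probes present in all 4 channels had mean percentiles from 38.1 upward, and 95% of the probes present in 0 channels lay below 32.4. Of 153 negative control spots on each array, 1 to 6 were marked well above background in the GATA1 Neg channel, and 0 spots were saturated. Percentiles of all probes correlated between channels at 0.978 to 0.980. The SD of a probe's percentile over the 4 channels had a median of 0.353 among present probes and 3.11 among probes present in 0 channels, so the order of the absent probes carries little information. After quantile normalization, limma called 0 of 40977 probes (0.0%) different between the red and the green readings of the control RNA at an adjusted p of 0.05, although 2632 probes were higher and 2811 lower in red at an unadjusted p of 0.05. With median scaling in place of quantile normalization, 23571 probes passed the adjusted p. The quantile-normalized fit called 0 probes (0.0%) different between the array pairs of GATA1 5-13 and GATA1 4-14, with 497 higher and 568 lower at the unadjusted p.

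**Figure D1:**
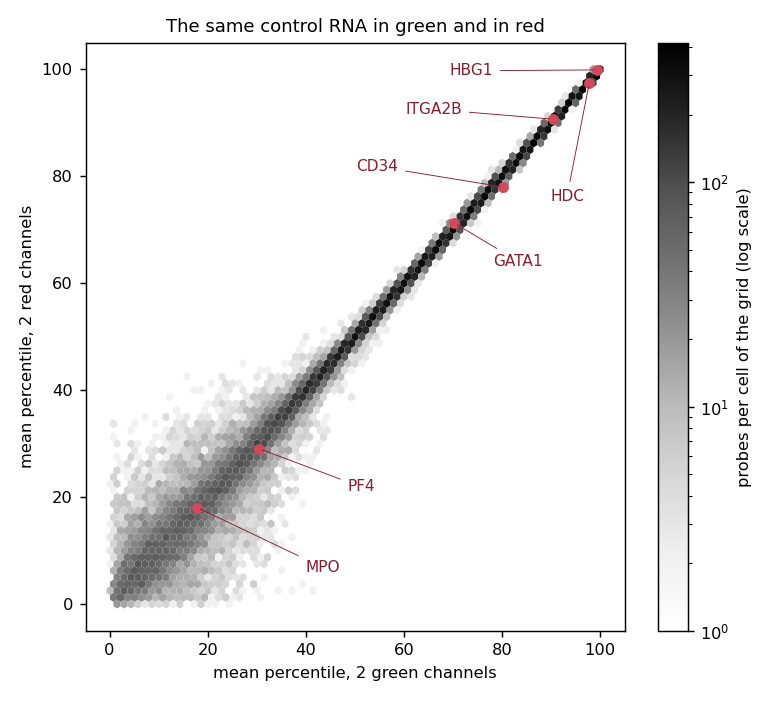
Mean percentile of each probe in the 2 green channels (x axis) against the 2 red channels (y axis) of GATA1 Neg, with the number of probes in each cell of the grid in grey on a log scale and 7 genes marked. Probes above about the 40th percentile lie in a narrow band, as for ITGA2B and HBG1, and probes below it scatter widely, as around MPO.

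The 3 genes that mark the line were present in all 4 channels. ITGA2B, the platelet integrin αIIb, had percentiles of 90.2 and 90.4 in green and 90.7 and 90.7 in red (mean 90.5 ± 0.25 SD, n = 4; as for every ± that follows), with signals of 7391 and 7549 in green and 17018 and 17088 in red. Its probe lies at chr17:39805268-39807257 of hg18, and a second ITGA2B probe was present at a mean of 79.6. GATA1, the transcription factor that the study targets, had percentiles of 70.2 and 70.4 in green and 71.2 and 71.3 in red (mean 70.8 ± 0.59) at chrX:48535797-48536559, from its 1 probe. CD34, a surface sialomucin of stem and progenitor cells, had percentiles of 80.3 and 80.3 in green and 78.2 and 77.9 in red (mean 79.2 ± 1.3) at chr1:206126517-206126576, and both green readings of CD34 lay above both red ones. A second CD34 probe was present at a mean of 54.8.

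Promoter sequences of 4 present lineage genes are shown because GATA factors bind the letters GATA, preceded by A or T and followed by A or G, on either strand. They are the genes with the highest mean percentile among the surface receptor, transcription factor, red-cell and mast cell lists whose promoter held such a word, and they run from 250 bases before to 50 after the RefSeq start on GRCh38.p14. Capitals mark the word.
ITGA2B (chr17:44389600-44389899, minus strand): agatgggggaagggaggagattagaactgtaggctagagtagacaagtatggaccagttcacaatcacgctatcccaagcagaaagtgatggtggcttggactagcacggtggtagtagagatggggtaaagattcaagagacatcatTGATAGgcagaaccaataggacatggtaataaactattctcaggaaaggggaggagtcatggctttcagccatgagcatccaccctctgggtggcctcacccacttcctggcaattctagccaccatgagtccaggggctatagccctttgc
TAL1 (chr1:47232286-47232585, minus strand): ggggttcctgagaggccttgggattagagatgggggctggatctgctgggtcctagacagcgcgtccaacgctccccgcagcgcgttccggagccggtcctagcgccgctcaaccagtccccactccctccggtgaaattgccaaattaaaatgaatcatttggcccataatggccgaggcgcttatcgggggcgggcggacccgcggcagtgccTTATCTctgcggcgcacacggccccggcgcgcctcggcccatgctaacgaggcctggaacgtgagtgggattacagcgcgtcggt
RHAG (chr6:49636790-49637089, minus strand): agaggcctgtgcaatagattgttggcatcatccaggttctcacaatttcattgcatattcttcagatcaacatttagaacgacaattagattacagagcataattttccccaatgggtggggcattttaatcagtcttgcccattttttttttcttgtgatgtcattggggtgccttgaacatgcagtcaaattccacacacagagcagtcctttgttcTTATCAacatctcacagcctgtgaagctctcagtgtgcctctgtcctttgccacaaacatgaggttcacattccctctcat
FCER1A (chr1:159302086-159302385, plus strand): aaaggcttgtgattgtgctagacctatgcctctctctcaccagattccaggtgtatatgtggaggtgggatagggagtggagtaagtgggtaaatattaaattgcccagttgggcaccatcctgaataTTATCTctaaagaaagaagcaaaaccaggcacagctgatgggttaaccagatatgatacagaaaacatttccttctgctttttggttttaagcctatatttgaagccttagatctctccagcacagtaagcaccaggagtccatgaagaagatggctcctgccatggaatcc
The word begins 102 bases before the start in ITGA2B and is on the printed strand there. In TAL1, RHAG and FCER1A it is on the opposite strand and begins 35, 31 and 122 bases before the start. Over all 35116 promoters of the table, 8769 (24.97%) held at least 1 word. The share was 1441 of 9625 (14.97%) for array genes present in all 4 GATA1 Neg channels and 869 of 3224 (26.95%) for those present in 0. Among the lists, 13 of 17 red-cell promoters, 9 of 15 mast cell, basophil and eosinophil promoters and 8 of 17 surface receptor promoters held a word. The counts were 6 of 21 for the transcription factors, 4 of 16 for platelet granule proteins and 1 of 15 for neutrophil genes. Each of these totals is below the number of list genes with a probe, 33 for red-cell genes, so the counts cover part of each list. The promoters of GATA1, CD34 and HDC held 0 words in this window. A word is a match of letters, and binding was not measured here.

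Of the platelet and megakaryocyte surface receptors, 17 of 23 were present in all 4 channels (73.9%, background 68.3%) and 5 in 0, with a median percentile of 45.8. Beside ITGA2B, the brightest readings came from CD36, the thrombospondin and fatty acid receptor, at 88.9 and 89.2 in green and 88.6 and 88.8 in red, and from F2R, the thrombin receptor PAR1, at 79.4 and 79.6 in green and 79.8 and 79.9 in red. ITGB3, the β3 partner of ITGA2B, gave 43.3 and 43.4 in green and 43.8 and 46.97 in red, and its 3 probes were all present. In the von Willebrand factor receptor, GP1BA was at 65.7 ± 0.21 and GP9 at 49.9 ± 0.73. The collagen receptor GP6 was at 62.2 ± 0.58, the ATP channel P2RX1 at 68.1 ± 0.31 and the ADP receptor P2RY1 at 56.04 ± 0.72. The receptors present in 0 channels were GP5 (12.4 ± 2.5), the ADP receptor P2RY12 (8.1 ± 1.9), the podoplanin receptor CLEC1B (18.8 ± 1.1), P-selectin SELP (29.8 ± 2.2) and MCAM (34.9 ± 2.6), and the adhesion receptor CD226 was present in 1. GP1BB had no probe under that name. Several of these receptors lay near the limit of detection, and 6 of the 23 had probes that disagreed. Above the 99th percentile of the negative control spots, 11 of the 23 were present, and 11 where every probe of the gene had to be.

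Platelet granule proteins were present less completely, 14 of 25 in all 4 channels (56.0%) and 10 in 0. PF4, the platelet chemokine CXCL4, had percentiles of 31.1 and 29.9 in green and 28.8 and 29.4 in red with signals of only 13.6 to 26.7, and was present in 0 channels. PPBP, the precursor of β-thromboglobulin, gave 39.996 and 23.95 in green and 20.6 and 31.5 in red and was present in 1 channel, the green reading on the first GATA1 5-13 array. VWF (28.3 ± 1.2), coagulation factors F5 (24.97 ± 0.26) and F13A1 (32.01 ± 1.9), the growth factors PDGFA (27.6 ± 1.6) and PDGFB (18.6 ± 5.5), and PF4V1, CCL5 and the granule GTPase RAB27B were present in 0. In these bulk RNA pools, fewer cells of a type and less RNA per cell cannot be told apart. The granule members that were present included the proteoglycan core serglycin, SRGN, at 96.04 and 95.7 in green and 96.005 and 95.9 in red, and the matrix protein SPARC at 89.3 ± 0.21. The protease inhibitors SERPINE2 (86.9 ± 0.18), TIMP1 (83.97 ± 0.44) and TIMP3 (81.4 ± 0.12) and the cytokine TGFB1 (86.5 ± 0.32) were also bright. Thrombospondin THBS1 was at 51.5 ± 0.36 and multimerin MMRN1 at 59.1 ± 0.44. Genes of granule assembly were present, with VPS33B at 71.96 ± 0.31 and NBEAL2 at 60.04 ± 0.44.

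The cytoskeleton and signalling machinery of platelets was present in 21 of 24 genes (87.5%), with a median percentile of 75.7. The formin DIAPH1 was at 98.2 ± 0.31, the α-tubulin TUBA4A at 97.7 ± 0.17, the G protein subunit GNAQ at 95.5 ± 0.14 and the nonmuscle myosin MYH9 at 91.4 ± 0.45. TUBB1, the β-tubulin of the platelet marginal band, was at 58.4 and 58.6 in green and 57.6 and 57.3 in red. The integrin activators RASGRP2 (94.2 ± 0.094), FERMT3 (81.7 ± 0.61) and TLN1 (75.3 ± 0.32), cyclooxygenase PTGS1 (75.5 ± 0.68) and the regulator RGS18 (92.5 ± 0.25) were all present. The 3 genes present in 0 channels were the receptor TREML1 (30.8 ± 2.4), the platelet lipoxygenase ALOX12 (29.9 ± 1.6) and the myosin light chain MYL9 (13.7 ± 4.8).

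Transcription factors shared by megakaryocytes and red cells were nearly all present, 26 of 27 (96.3%), with a median percentile of 79.9. MYB, a progenitor factor that restrains megakaryocyte maturation, was at 97.9 and 97.9 in green and 97.7 and 97.6 in red, and NFE2, needed for platelet release, at 97.3 and 97.2 in green and 97.1 and 97.02 in red. The members of the complex that GATA1 joins were present, with TAL1 at 95.4 ± 0.31, LMO2 at 96.5 ± 0.21, TCF3 at 96.1 ± 0.24, LYL1 at 90.3 ± 0.25 and LDB1 at 56.6 ± 0.25. ZFPM1, the GATA1 cofactor, was at 52.7 ± 1.6. GATA2 gave 68.7 and 68.8 in green and 69.6 and 69.4 in red. The ETS factors FLI1 (89.99 ± 0.5) and ERG (89.4 ± 0.1), the core-binding factor pair RUNX1 (85.4 ± 0.2) and CBFB (93.8 ± 0.17) and the repressor GFI1B (79.2 ± 0.72) were present. So were KLF1, the red-cell activator, at 54.9 ± 0.55, and SPI1 (PU.1), the myeloid factor, at 45.2 ± 0.74. MEIS1 was the exception, at 12.2 and 10.5 in green and 13.96 and 11.1 in red and present in 0 channels. ETV2 and MKL1 had no probe under those names.

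Red-cell genes had the highest share of the 14 lineage lists, 32 of 33 present in all 4 channels (97.0%) and 0 in 0, with a median percentile of 84.03. HBG1, a fetal γ-globin, had percentiles of 98.6 and 99.99 in green and 99.9 and 99.97 in red, and its other probe was at 99.4. The first GATA1 5-13 array read it lower than the other 3. HBG1 and HBG2, like HBA1 and HBA2, are near identical and a probe may bind both copies. The α-globin probes HBA1 (96.1 ± 0.2) and HBA2 (95.4 ± 0.42), β-globin HBB (90.5 ± 0.31), δ-globin HBD (78.5 ± 0.31) and embryonic ε-globin HBE1 (76.7 ± 0.87) were present, and embryonic ζ-globin HBZ, at 36.1 and 41.9 in green and 30.9 and 44.03 in red, was present in 2 channels only. Carbonic anhydrase CA1 was at 98.5 and 99.1 in green and 98.5 and 98.5 in red and the transferrin receptor TFRC at 98.3 and 98.997 in green and 98.4 and 98.4 in red. The Rh-associated glycoprotein RHAG was at 96.8 ± 0.22. The erythropoietin receptor EPOR (76.1 ± 0.49) and the erythroid heme enzyme ALAS2 (80.7 ± 0.71), whose 2 probes agreed, were present. Genes of late red cells stood near the limit, with the anion exchanger SLC4A1 at 42.5 ± 1.2 and the α-globin chaperone AHSP at 41.4 ± 0.24.

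Heme synthesis and iron handling genes were present in 19 of 19 cases (100.0%, median percentile 85.7). The pathway was covered from ALAS1 (75.9 ± 0.35), which opens it in all tissues, through ALAD (61.7 ± 0.72), UROS (73.8 ± 0.15), UROD (97.9 ± 0.12), CPOX (85.6 ± 0.16) and PPOX (82.3 ± 0.29), to FECH (85.7 ± 0.12), which inserts the iron. The ferritin chains FTH1 (99.9 ± 0.085) and FTL (99.4 ± 0.13) and the iron exporter SLC40A1 (93.2 ± 0.24) were also present, as was the heme-degrading partner BLVRA, a biliverdin reductase, at 97.2 ± 0.14.

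Genes of mast cells, basophils and eosinophils were present in 11 of 18 cases (61.1%, background 68.3%), and several had bright probes. HDC, the enzyme that makes histamine, gave 97.8 and 97.8 in green and 97.4 and 97.5 in red. FCER1A, the α chain of the high-affinity IgE receptor, gave 97.6 and 97.5 in green and 96.8 and 96.9 in red, and the β chain MS4A2 (60.1 ± 0.43) and γ chain FCER1G (85.6 ± 0.12) were present as well. MS4A3 (93.7 ± 0.43) and the basophil ectoenzyme ENPP3 (93.2 ± 0.13) stood above the 90th percentile. The mast cell proteases were divided, with carboxypeptidase CPA3 at 69.5 ± 0.43 and tryptase TPSAB1 at 50.6 ± 1.5 present and chymase CMA1 (14.05 ± 12.02) in 0 channels. The eosinophil granule proteins EPX (10.96 ± 3.2), RNASE2 (17.98 ± 4.8), RNASE3 (14.3 ± 5.01) and PRG3 (24.9 ± 4.01) were present in 0, although PRG2 (50.2 ± 0.85) was present. CLC (41.5 ± 1.9) and IL5RA (41.7 ± 0.33) were just above the limit, and the eotaxin receptor CCR3 (34.4 ± 0.75) was in 0.

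Stem and progenitor cell genes were present in 18 of 24 cases (background 68.3%). Beside CD34, the myeloid lectin CD33 gave 97.5 and 97.6 in green and 97.4 and 97.4 in red and the stem cell factor receptor KIT 79.6 and 79.7 in green and 79.5 and 79.4 in red. The pan-leukocyte phosphatase PTPRC (CD45) was at 94.6 ± 0.33, the hyaluronan receptor CD44 at 94.6 ± 0.27, and the stem cell regulators MLLT3 and HOXA9 at 92.5 ± 0.13 and 92.1 ± 0.2. THY1 (65.2 ± 0.7), the protein C receptor PROCR (63.3 ± 0.67), the angiopoietin receptor TEK (69.1 ± 0.22) and the transcription factor HLF (43.4 ± 0.74) were present. PROM1 (CD133, 7.4 ± 2.3), CD38 (23.5 ± 1.4), CRHBP (19.98 ± 2.8), AVP (19.4 ± 11.1) and DLK1 (32.7 ± 4.98) were present in 0 channels, and the kinase FLT3 in 1, at 26.8 and 19.4 in green and 40.9 and 4.9 in red.

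Granulocyte and monocyte genes were mostly not detected. Of the neutrophil list 5 of 20 (25.0%) were present in all 4 channels and 11 in 0, with a median percentile of 28.9. Myeloperoxidase MPO gave 14.5 and 21.2 in green and 14.5 and 21.7 in red, with signals of -0.99 and 3.66 in green and 0.03 and 5.76 in red, and was present in 0. The other granule proteases split, with ELANE and AZU1 (37.9 ± 0.92 and 37.7 ± 0.83) present in 3 channels, PRTN3 (26.9 ± 2.6) in 0 and cathepsin G, CTSG (48.8 ± 0.31), in all 4. The remaining present genes were the factors CEBPA (55.8 ± 4.6) and CEBPE (41.4 ± 1.3) and the secondary granule proteins LCN2 (48.2 ± 0.36) and LTF (44.1 ± 0.69). Of the monocyte list 5 of 18 (27.8%) were present, among them ITGAM (CD11b, 83.5 ± 0.44), the lysosomal CD68 (80.2 ± 0.31), AIF1 (75.2 ± 0.28) and lysozyme LYZ (43.7 ± 0.17). The monocyte receptors CD14 (38.03 and 36.6 in green and 38.5 and 38.6 in red) and CSF1R (25.7 ± 2.1) were present in 2 and 0 channels.

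Lymphoid genes were also present less often than the background of 68.3%. The B-cell list had 5 of 18 genes (27.8%) present in all 4 channels and 9 in 0. The T-cell and NK-cell list had 6 of 22 (27.3%) present in all 4 and 11 in 0. MS4A1 (CD20, 8.7 ± 5.98) and the recombination enzyme DNTT (3.2 ± 2.7) were present in 0 channels. CD24, a small glycoprotein with near-identical copies elsewhere in the genome, gave 97.03 and 99.2 in green and 98.1 and 98.1 in red, and CD79A of the B-cell receptor was at 67.9 ± 0.77. CR2 (61.7 ± 0.64), PAX5 (49.1 ± 2.6) and IGLL1 (46.2 ± 1.6) completed the present B-cell members. CD4 gave 87.7 and 87.5 in green and 87.1 and 86.6 in red, the ζ chain CD247 was at 62.03 ± 0.54, and the granzymes GZMA and GZMB at 70.3 ± 0.23 and 60.9 ± 2.1. Of the T-cell receptor complex CD3E (44.9 ± 0.29) was present by 1 of 2 probes, while CD3D (14.4 ± 1.7) and CD3G (11.3 ± 8.2) were in 0 channels. In MHC class II, 5 of 12 (41.7%) were present, with a highest mean of 51.1 and with HLA-DRA at 45.4 ± 0.48. The invariant chain CD74 (13.5 ± 3.3) was in 0 channels, and the class II activator CIITA (37.9 ± 2.8) in 2.

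Of the endothelial genes, which overlap with those of early blood cells, 10 of 17 (58.8%) were present. PECAM1 (88.8 ± 0.25), also a platelet adhesion molecule, ESAM (84.2 ± 0.35), EGFL7 (81.2 ± 0.3), the receptors TIE1 (72.03 ± 0.36) and KDR (67.2 ± 0.24) and nitric oxide synthase NOS3 (53.3 ± 0.31) were among them. The defining endothelial cadherin CDH5 (18.6 ± 13.8) and the sialomucin EMCN (14.9 ± 4.4) were present in 0 channels. Among genes of epithelium, fibroblasts, liver, muscle and nerve, 7 of 23 (30.4%) were present. Albumin ALB (33.8 ± 2.1), apolipoprotein APOB (8.6 ± 2.4), the collagens COL1A1 (13.2 ± 2.1), COL1A2 and COL3A1 and insulin INS (31.97 ± 0.36) were in 0. EPCAM, an epithelial adhesion molecule, gave 94.6 and 94.9 in green and 94.8 and 94.7 in red, although E-cadherin CDH1 (21.7 ± 2.6) was in 0 channels. Keratins KRT18 (79.7 ± 0.089) and KRT8 (56.5 ± 0.6) were present too.

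**Figure D2:**
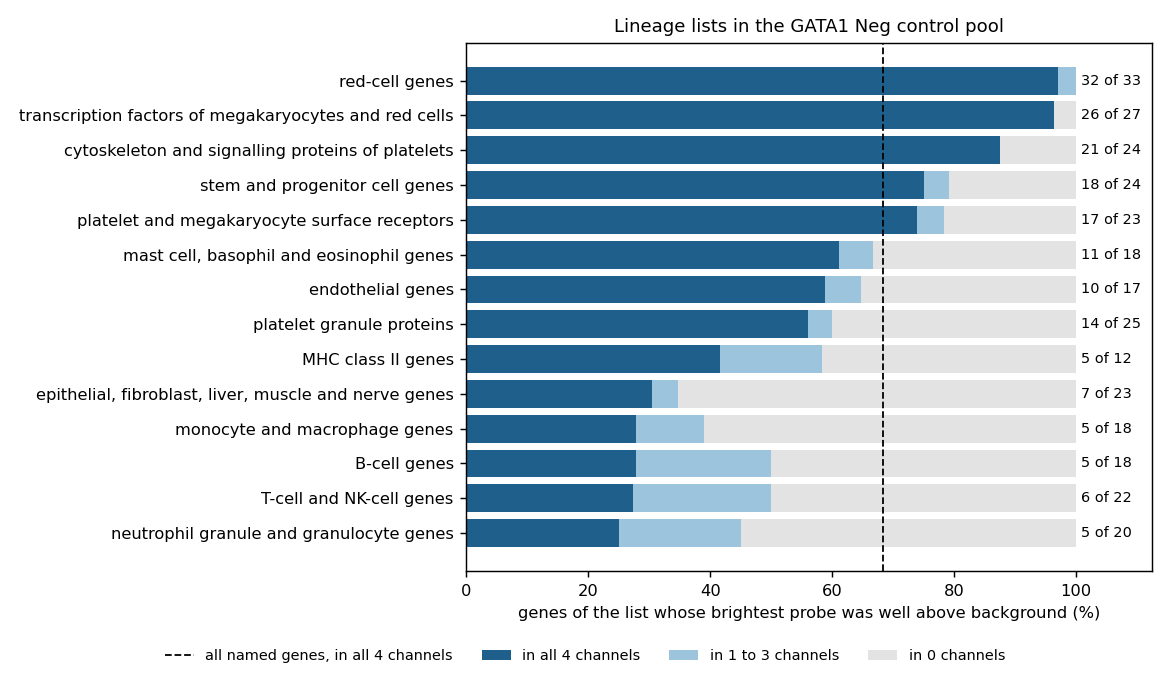
Share of the genes of each lineage list whose brightest probe was well above background in all 4, in 1 to 3 and in 0 of the GATA1 Neg channels, with the number in all 4 at the right and the share over all named genes as a dashed line at 68.3%. Red-cell genes (32 of 33) and the transcription factors (26 of 27) lie to the right of the line, and the neutrophil, monocyte, B-cell and T-cell lists (25.0 to 27.8%) lie to the left of it.

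**Figure D3:**
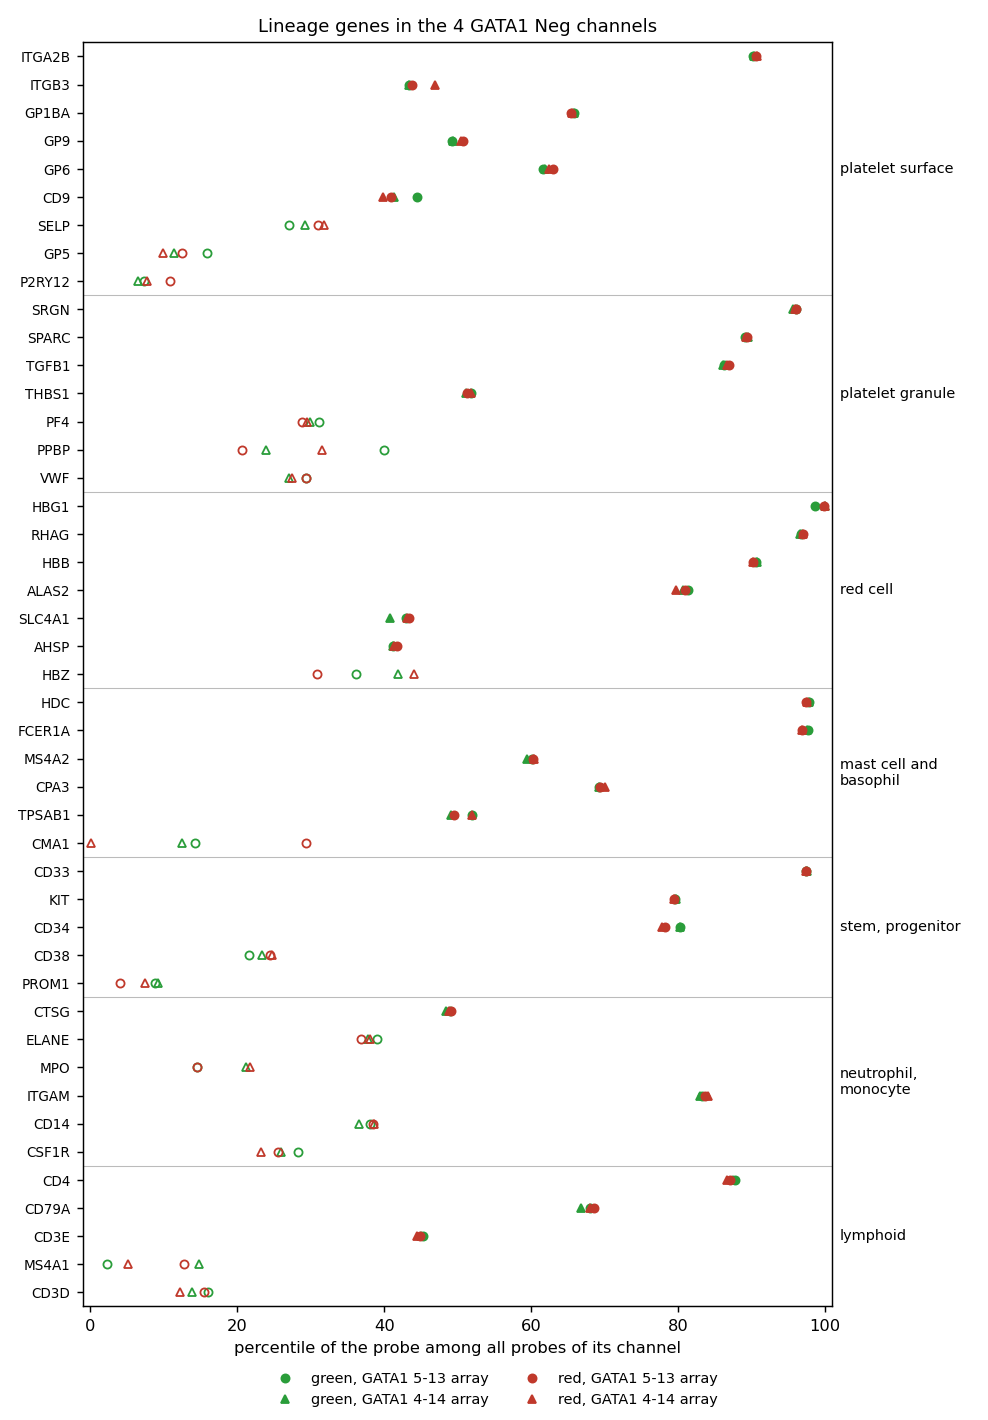
Percentile of the probe in each of the 4 GATA1 Neg channels (x axis, 0 to 100) for lineage genes (rows), green channels in green and red channels in red, circles for the GATA1 5-13 arrays and triangles for the GATA1 4-14 arrays; filled symbols mark genes well above background in all 4 channels and open symbols the others. The readings of present genes such as ITGA2B (90.5), RHAG (96.8) and HDC (97.6) nearly coincide, while those of undetected genes such as CMA1 and MS4A1 are spread.

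The cytokine receptor list was present in 20 of 26 cases (76.9%), with a median percentile of 55.3. It also holds a ligand, KITLG (38.7 ± 1.2), which was present in 3 channels. LEPR, the leptin receptor gene, gave 96.4 and 96.4 in green and 96.9 and 96.9 in red by one probe, and its other probe was at 69.4. The interferon receptors IFNGR1 (93.4 ± 0.065), IFNAR1 (93.1 ± 0.24), IFNGR2 (79.7 ± 0.18) and IFNAR2 (53.5 ± 0.13) and the interleukin-4 receptor IL4R (90.5 ± 0.12) were present. The shared β chain of the interleukin-3, interleukin-5 and GM-CSF receptors, CSF2RB, was at 41.5 ± 0.65, while the α chains IL3RA (35.6 and 33.4 in green and 36.97 and 36.1 in red) and CSF2RA (18.01 ± 4.3) were present in 1 and 0 channels. Of the interleukin-6 group, IL6ST (gp130, 52.8 ± 0.28) and IL11RA (58.1 ± 0.27) were present and IL6R (22.6 ± 7.5) was in 0, as were IL7R (21.2 ± 1.9) and TNFRSF1B (13.99 ± 4.8).

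Behind the receptors, genes of the JAK, STAT, SOCS and BCR-ABL pathway were present in 34 of 36 cases (94.4%, median percentile 82.1). Meg-01 carries the BCR-ABL fusion of its leukemia of origin. Which probes of either partner lie in the part kept by the fusion was not tested, so fusion and normal transcripts were not told apart here. All 7 BCR probes were present, the brightest at 59.4 and 59.2 in green and 60.2 and 60.01 in red, and ABL1 gave 91.4 and 91.6 in green and 91.97 and 92.2 in red, with 2 of its 5 probes present. JAK1 was at 90.7 ± 0.12, JAK2 at 69.5 ± 0.3, STAT5A at 90.1 ± 0.27 and STAT5B at 72.98 ± 0.68. The serine kinase PIM1 was at 98.04 and 98.7 in green and 97.99 and 98.01 in red, and the signalling inhibitors SOCS2 and CISH were at 97.5 ± 0.1 and 88.1 ± 0.29. The adaptor GRB2 (94.2 ± 0.061), the phosphatase PTPN11 (95.8 ± 0.024) and the kinases LYN (94.9 ± 0.07) and BTK (91.3 ± 0.27) were present. STAT2 (33.8 ± 2.7) was in 0 channels.

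Growth factor and cytokine ligands were present in 23 of 34 cases (67.6%), close to the background of 68.3%. Interleukin-1β, IL1B, gave 97.3 and 96.9 in green and 96.5 and 96.4 in red. IL18 (82.2 ± 0.065), VEGFA (84.6 ± 0.29), VEGFB (90.3 ± 0.17), oncostatin M, OSM (76.2 ± 0.81), and LIF (80.2 ± 0.42) were present, as were interleukin-6, IL6 (61.7 ± 0.18), and the chemokines CXCL8 (69.1 ± 0.43), CCL2 (69.9 ± 0.16) and CCL3 (63.98 ± 0.99). The hormones of the lineage were not, thrombopoietin THPO (29.005 ± 1.3) and erythropoietin EPO (16.9 ± 1.6) being in 0 channels, together with TNF (33.04 ± 1.8), IL10 (23.9 ± 3.1), IGF1 (25.7 ± 6.8) and CSF3 (5.5 ± 1.8).

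Mitosis and DNA replication genes were present in 41 of 41 cases (100.0%), with a median percentile of 90.1 against 62.2 over all named genes. Thymidylate synthase TYMS gave 99.3 and 98.2 in green and 98.6 and 98.5 in red, the replication helicase subunit MCM3 98.03 ± 0.14, the sliding clamp PCNA 96.8 ± 0.13 and cyclin CCNB1 96.7 ± 0.17. MKI67, the Ki-67 antigen, was at 73.4 ± 0.39, TOP2A, the topoisomerase that anthracyclines poison, at 96.6 ± 0.066 and E2F1, with the lowest mean of the list, at 59.2 ± 0.35.

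D cyclins, their kinases, inhibitors and tumour suppressors were present in 22 of 23 cases (95.7%). CDKN2A, the locus of p16 and p14ARF, gave 99.6 and 99.8 in green and 99.7 and 99.6 in red, with its second probe at 98.1. CDKN2B next to it was at 70.4 ± 0.43, and the related inhibitors CDKN2C and CDKN2D at 92.4 ± 0.15 and 93.6 ± 0.17. Of the D cyclins, CCND2 was at 95.9 ± 0.092, CCND3 at 89.99 ± 0.19 and CCND1 at 55.5 ± 0.36, with CDK6 at 95.9 ± 0.11 and CDK4 at 93.9 ± 0.09. RB1 (91.4 ± 0.24) and the inhibitors CDKN1B (86.005 ± 0.34) and CDKN1A (62.96 ± 0.12) were present. MDM2 (37.8 ± 0.62) was present in 2 channels.

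The BCL2 family was present in 14 of 17 cases (82.4%). Of the genes for survival proteins, MCL1 gave 91.6 ± 0.48, BCL2A1 87.2 ± 0.23 and BCL2L2 78.96 ± 0.35. BCL2 gave 75.2 and 75.4 in green and 74.8 and 74.8 in red, and BCL2L1 47.4 and 48.5 in green and 47.8 and 47.95 in red. These are RNA readings. By western blot the paper reports Bcl-xL protein, from BCL2L1, in its Meg-01 lines but no Bcl-2 protein. BCL2A1 and BCL2L1 were each present by 1 of 2 probes. Of the death-promoting members, BID was at 93.2 ± 0.11, BCL2L11 (BIM) at 88.6 ± 0.15, BBC3 (PUMA) at 85.5 ± 0.37, PMAIP1 (NOXA) at 85.2 ± 0.05, BAX at 83.9 ± 0.23 and BAK1 at 55.7 ± 0.3. BCL2L10 (15.001 ± 2.1) was in 0 channels, BOK (35.9 ± 1.4) in 1 and BMF (39.1 ± 3.8) in 2.

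For cytarabine and daunorubicin, the 2 drugs to which the study tested these cells, 20 of 24 handling genes were present (83.3%). Cytarabine enters by SLC29A1 (94.7 and 94.7 in green and 94.3 and 94.2 in red) and is activated by deoxycytidine kinase, DCK (92.8 and 92.8 in green and 92.96 and 93.1 in red), with CMPK1 (94.3 ± 0.2) and NME1 (97.8 ± 0.2) in the later steps. Cytidine deaminase CDA, which inactivates it, gave 32.2 and 34.3 in green and 34.98 and 35.7 in red and was present in 0 channels, whereas the deaminase DCTD (90.7 ± 0.062) and the nucleotidases NT5C2 (80.96 ± 0.51) and NT5C3A (91.8 ± 0.19) were present, as was SAMHD1 (62.4 ± 0.81). The concentrative transporters SLC28A1 (22.1 ± 1.6) and SLC28A3 (18.2 ± 4.5) were in 0. The daunorubicin target TOP2B was at 96.9 ± 0.053, the carbonyl reductase CBR1 at 93.4 ± 0.24, and the efflux pumps ABCB1 and ABCC1 at 77.8 ± 0.3 and 80.7 ± 0.45. The glutathione transferase GSTT1 (16.6 ± 4.4) was in 0 channels, and GSTM1 (73.9 ± 0.27), which has close paralogs, and GSTP1 (65.8 ± 0.24) were present.

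Chromatin and DNA methylation enzymes were present in 27 of 28 cases (96.4%). DNMT1 was at 84.1 ± 0.38, DNMT3A at 59.97 ± 0.4 and DNMT3B at 86.5 ± 0.12, the methylcytosine oxidase TET2 at 55.7 ± 0.53, the polycomb subunits EZH2 and SUZ12 at 92.6 ± 0.13 and 94.2 ± 0.23, the remodeller SMARCA4 at 97.1 ± 0.063, and the deacetylases HDAC1 and HDAC2 at 95.97 ± 0.13 and 96.5 ± 0.26. HDAC9 (31.8 ± 4.5) was the exception, in 0 channels by this probe and by 4 of its 5 probes, and TET1 and TET3 had no probe under those names. HOX genes, which pattern the body axis and are used in blood by cluster, were present in 17 of 39 cases (43.6%). By cluster, 7 of 11 HOXA and 7 of 10 HOXB genes were present, against 2 of 9 HOXC and 1 of 9 HOXD. HOXB2 gave 96.4 and 96.6 in green and 96.2 and 96.2 in red, HOXA3 92.5 ± 0.48, HOXA9 92.1 ± 0.2, HOXB3 89.01 ± 0.2 and HOXB4 85.6 ± 0.45. The present members of the other clusters were HOXC8 (49.5 ± 0.57), HOXC9 (50.1 ± 0.2) and HOXD13 (64.6 ± 0.49). HOXA2 (26.98 ± 0.38) was present in 0 channels.

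MHC class I and interferon response genes were present in 26 of 28 cases (92.9%). The class I heavy chains HLA-B (89.02 ± 0.68) and HLA-C (95.6 ± 0.073) are similar in sequence and may share signal, and B2M, their light chain, was at 98.3 ± 0.083. The peptide transporter genes TAP1 and TAP2 were at 77.7 ± 0.42 and 55.6 ± 0.25. Of the response genes ISG15 was at 73.97 ± 0.81 and MX1 at 42.3 ± 0.62, with OAS2 (22.4 ± 6.2) and MX2 (33.3 ± 3.7) in 0 channels. Only 1 of the 2 OAS2 probes was in 0 channels.

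The genes that most cells use were present in 29 of 29 cases (100.0%), among them ACTB (99.6 ± 0.043), GAPDH (98.8 ± 0.16) and the transcription factor TBP (87.000 ± 0.4). The 15 named genes with the brightest probes on the array were ribosomal proteins in 12 cases (among them RPS28, RPS2, RPLP0, RPL37A, RPS16, RPL13A, RPS20, RPS29, RPL13 and RPL35A), together with the elongation factors EEF1A1 and EEF1G and the mitochondrial cytochrome oxidase subunit COX1. Their mean percentiles ran from 99.94 to 99.99. Ribosomal protein genes have many processed copies in the genome, so their probes may bind several transcripts.

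**Figure D4:**
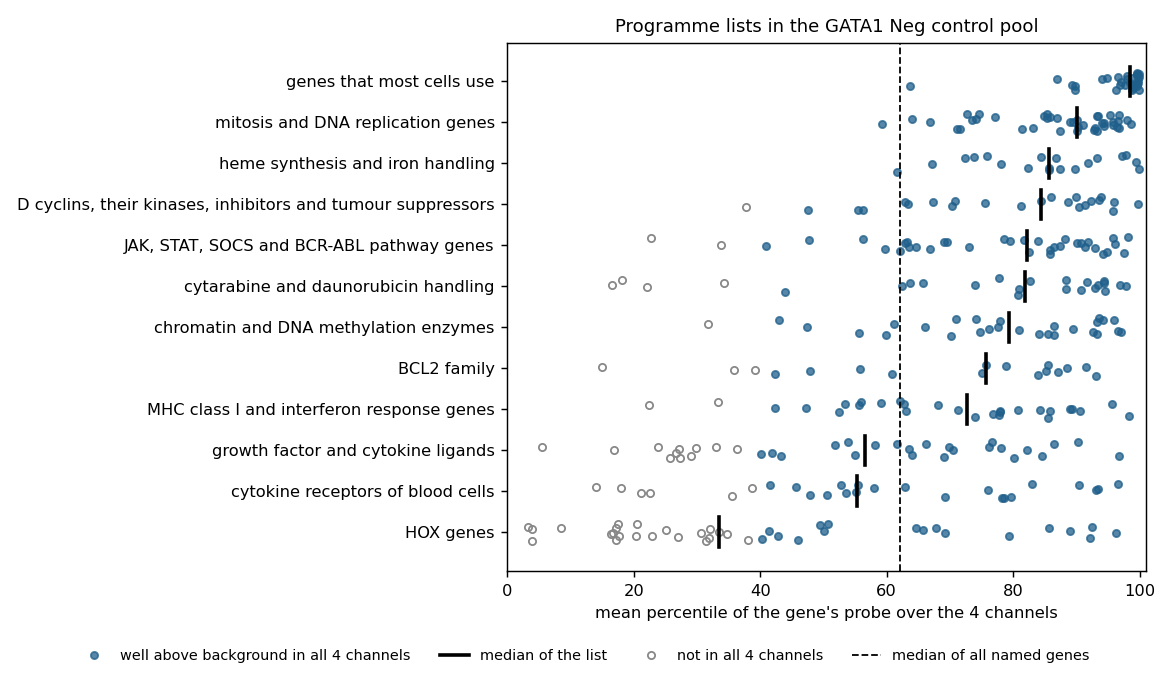
Mean percentile over the 4 GATA1 Neg channels (x axis, 0 to 100) of each gene's probe in 12 programme lists (rows), filled where it was well above background in all 4 channels and open otherwise, with the list median as a bar and the median of all named genes, 62.2, as a dashed line. The mitosis and replication genes have a median of 90.1 and all are filled, whereas HOX genes have a median of 33.5 and most are open.

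The presence profile of the control pool was compared with that of the knockdown clones on the same arrays. Of the 11808 genes present in all 4 GATA1 Neg channels, 11531 were also present in all 4 clone channels. Present in all 4 GATA1 Neg channels and in 0 clone channels were 20 genes, and 11 showed the reverse. Of the genes in the lists, PDE3A, the platelet phosphodiesterase (42.7 ± 0.76), and CSF1, the macrophage growth factor (41.9 ± 0.65), were among the 20, and both lay near the limit of detection. By limma over the 2 clones, 0 of 40974 probes (0.0%) passed an adjusted p of 0.05. Each probe entered this fit as 2 values, so the 0 does not show that pool and clones were alike. At an unadjusted p of 0.05, 1656 probes were higher and 1386 lower in GATA1 Neg. With the 4 arrays entered as 4 values, which counts the repeated arrays of a clone as independent, 1240 probes passed.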

How the data were processed

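RNA of GATA1 Neg and of 2 knockdown clones was read on 4 2-colour Agilent arrays. Per the file headers, each array was deposited by the authors as written by its extraction program (Agilent Feature Extraction, version 9.5.3.1), with mean, background and background-subtracted intensities per spot and channel, neither dye- nor array-normalized, its calls per spot, and a dye-normalized log10 ratio. The deposited log10 ratios served only as an alternative, and the series-wide ratio table was not used here. Probe positions are on hg18. The GATA1 Neg channel of each array was taken from the labels.

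Background-subtracted intensity (mean signal minus the fitted background surface) was averaged over the spots of a probe and ranked within its channel. Control spots and 104 to 116 outlier spots a channel were left out. Symbols came from RefSeq accessions (17202 of 17836 matched) or exact current symbols of a GRCh38.p14 table, and promoters from RefSeq on the same build. Brightness depends on probe affinity, labelling and amplification. The number of arrays limits precision. A presence count tests nothing about replicate cultures.

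Signals were compared with limma 3.58.1 in R 4.3.3 after normexp (offset 50). Red against green and array pair against array pair used quantile normalization over the 4 control channels. Control against clones used loess ratios, averaged per clone, with Benjamini-Hochberg adjustment. The limma fits were also run on simulated log2 values with 200 probes changed and spreads taken from the control channels. That simulation skipped background correction and normalization. Tables used Python 3.11.15 with pandas 2.3.3, numpy 2.4.6 and scipy 1.17.1, and figures matplotlib 3.10.9.

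Genes named were ITGA2B, GATA1 and CD34, and from each list its first 3 genes, the 3 present genes with the highest mean percentile and, where at most 5, those against the list's majority, with the 15 brightest named genes of the array. Some genes that this rule names are not reported here. Further list members are given outside it, as are the promoters. The members and lists were chosen with earlier results of these data known. Alternatives were other presence calls, 3 of 4 channels, 1 dye, outlier spots kept, all or any probes of a gene, other background corrections and scalings, a filter on dim probes, blocks, and each array left out.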

Additional observations from a re-analysis of the deposited data

Results flagged for a closer look

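Of the 177 named genes, 8 had 1 GATA1 Neg channel set apart from the other 3 by Dixon's test, which marks about 1 in 20 groups of 4 by chance. The green reading on the first GATA1 5-13 array was low for HBG1 (98.6 against 99.9 to 99.99) and for RPL35A (99.9 against 99.96 to 99.97). The green reading on the first GATA1 4-14 array was low for BCL2L11 (88.3 against 88.6 to 88.7) and RPL37A (99.966 against 99.983 to 99.985), and high for CA1 (99.1 against 98.5 to 98.5) and PIM1 (98.7 against 97.99 to 98.04). The red reading on the second GATA1 4-14 array was high for HLA-DMA (49.8 against 47.2 to 47.6) and ITGB3 (46.97 against 43.3 to 43.8). All 8 genes were present in all 4 channels with or without the channel set apart.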

How the results depend on the processing

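Of 312 list counts under an alternative, 298 stayed within 1.5 times the count in all 4 channels. With the looser call of a positive and significant signal, which calls 77.4% of named genes, the counts were 11 for neutrophil, 10 for monocyte, 9 for B-cell, 11 for T-cell and NK-cell and 10 for MHC class II genes. Above the 99th percentile of the negative control spots (63.2% of named genes) they were 11 for surface receptors, 3 for neutrophil, 3 for monocyte, 3 for MHC class II and 4 for epithelial, fibroblast, liver, muscle and nerve genes. With every probe of a gene required (60.6%) they were 11 for surface receptors and 3 each for B-cell, MHC class II and other-tissue genes. The single-dye, 3-of-4-channel, outlier and any-probe settings and each array left out moved no list count past 1.5 times. The percentiles of the 177 named genes shifted by a median of 0.206 between 1 dye and both. With local background 11 of them moved by at least their SD over the channels (shifts from -6.92 to 4.91 over all 177), and without background subtraction 19 did (-9.84 to 9.21).

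With median scaling in place of quantile normalization, 23571 probes differed between red and green, and percentiles, which are ranks within a channel, are the same under either scaling. For GATA1 Neg against the clones, a filter on dim probes gave 1 probe, the 4 arrays as 4 values 1240, and these with a replicate block 269, and leaving out an array gave 0 to 1. Arrays with the same replicate number share a dye orientation only. With a replicate block, 0 probes differed between the array pairs. Deviations of same-numbered control channels correlated at 0.097. The call of genes near the 40th percentile is limited by signal over background.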

Other observations

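Gene families outside the lists, chosen after their values were seen, gave a wider view of the control pool. Mitochondrial ribosomal proteins were present in 78 of 78 cases, subunits of respiratory complex I in 44 of 44, cytosolic ribosomal proteins in 82 of 83, proteasome subunits in 38 of 39 and chaperonin subunits in 10 of 11. Families tied to other tissues were mostly not detected, with 13 of 113 olfactory receptors, 9 of 49 keratins, 0 of 14 β-defensins and 0 of 8 interferon α genes present. Cancer-testis antigens were present in 10 of 37 cases, among them MAGEA1 (81.4 ± 0.8), CT45A5 (80.1 ± 1.9) and SAGE1 (63.6 ± 0.52), and CT45 genes are near identical to each other. Bitter taste receptors were present in 7 of 24 cases and keratin-associated proteins in 11 of 39. KRTAP4-7 was at 85.5 ± 0.45 by 1 of 2 probes, the other being in 0 channels. The deposited position of the bright probe is on chromosome 15, whereas those of KRTAP1-3 and KRTAP2-4 are on chromosome 17. By name these are genes foreign to blood, and whether their probes read their own transcripts was not tested.

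Other named genes, also chosen after their values were seen, included MYC (99.3 ± 0.12), the intermediate filament VIM (99.8 ± 0.15), the microtubule regulator STMN1 (99.4 ± 0.27), the laminin receptor BCAM (99.3 ± 0.16), the neuropeptide GAL (98.4 ± 0.59) and the retinal dehydrogenase ALDH1A1 (98.3 ± 0.58). Beside the γ-globin probes, the γ-globin repressors BCL11A (76.4 ± 0.15) and ZBTB7A (66.000 ± 0.35) were present. The fetal RNA-binding proteins were divided, with LIN28B (7.3 ± 1.8) and IGF2BP1 (22.98 ± 4.6) in 0 channels and IGF2BP3 (86.1 ± 0.12) in all 4. The factor SOX6 (7.3 ± 3.8) was present in 0 channels. Prostaglandin D2 synthase, HPGDS (66.8 ± 0.49), and leukotriene C4 synthase, LTC4S (54.8 ± 0.92), enzymes of mast cell mediators, were present, and so were the lipoxygenase ALOX5 (54.2 ± 0.48) and its partner ALOX5AP (40.2 ± 0.67). The platelet serotonin transporter SLC6A4 (27.9 ± 1.4) was present in 0 channels, and MPIG6B (55.1 ± 0.21), an inhibitory receptor of megakaryocytes, in all 4.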
